A study of Homo sapiens with 15 samples.

Results

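MT-CO1, MT-CO2 and MT-CO3 encode the subunits of cytochrome c oxidase, complex IV of the respiratory chain, that are made inside the mitochondrion. They are 3 of the 37 mitochondrial genes and are defined by position, not by a measured value. Earlier results of these data were known when they were chosen. In the annotation MT-CO1 spans positions 5904 to 7445 of the mitochondrial chromosome, MT-CO2 spans 7586 to 8269 and MT-CO3 spans 9207 to 9990, all on the plus strand and each a single exon. Both strands of the genes together hold 6020 of the 33142 strand-specific positions of the mitochondrial genome, and a sample had a terminus at between 1706 and 4590 of them. The positions are those of GENCODE 44 mapped to GRCh37 (hg19), and since the mitochondrial sequence behind the files is a few bases longer, gene ends may be displaced by 1 or 2 bases.

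The SSiNGLe-P1 assay maps free 3′-OH ends of DNA to single bases after digestion with P1, a nuclease that cuts single-stranded nucleic acid. K562, an established human leukemia cell line, was crosslinked, and nuclei pellets with the mitochondria that co-purified with them were left untreated or were digested with 0.01, 0.1, 1 or 10 U of P1. Each of the 5 groups had 3 biological replicates, and the 15 samples carried no other treatment. In its mitochondrial part the study asked whether the H strand is single-stranded more often than the L strand, and compared regions along each strand. It also profiled the nuclear genome of the same samples.

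In the strand-displacement model of mitochondrial replication, the new H strand is made first and leaves the old H strand single-stranded. Synthesis of the new L strand begins when the L-strand origin (OL) is uncovered, and then runs through MT-CO1, MT-CO2 and MT-CO3 in this order. The mRNAs of the 3 genes have the sequence of the L strand, so the H strand is their template. OL was taken as the gap between the tRNA genes MT-TN and MT-TC, and MT-CO1 begins 0.159 kb from the middle of it. On the same scale MT-CO2 begins at 1.84 kb and MT-CO3 ends at 4.25 kb. MT-ND1 and MT-ND2, subunits of complex I, lie on the other side of OL and are copied late on the L strand in that model.

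The samples held 29622 to 692989 mitochondrial termini, and the 3 genes held 4297 to 49215 of them. The fewest were found at 10 U, and the untreated replicate 1 had 112179 against 468797 and 486276 in the other untreated samples. The noncoding region (NCR), which carries the D-loop, took 68.0% ± 1.78 (SD, n = 3) of all termini without P1, 39.8% ± 1.51 after 1 U and 27.2% ± 3.44 after 10 U. Levels are given as RPM per kb, the termini per kb scaled to 1000000 mitochondrial termini of the sample. They move with the share of the NCR, so changes are also given with the termini outside the NCR as the total. With either total a level is a share, so a gain in one place can lower the level elsewhere. The ratio of H-strand to L-strand termini (H/L ratio) does not depend on the total. Near-identical nuclear copies of the 3 genes lie on chromosome 1 of hg19, at 566454 to 567996 for MT-CO1 (98.6% identity), 568137 to 568818 for MT-CO2 (98.0%) and 569756 to 570304 for MT-CO3 (98.2% over 70.0% of the gene). The nuclear files had 1 to 79 termini in such a copy, at most 0.938% of the mitochondrial termini of the same gene and sample. The density of mitochondrial termini in the 3 genes was 1568 to 17030 times the average density over the nuclear genome, and the share of single reads that came from the copies was not tested.

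The H/L ratio of all 3 genes was below 1 without P1, rose at 0.1 U, was highest at 1 U and was lower again at 10 U. In MT-CO1, the catalytic subunit, it was 0.672, 0.724 and 0.781 in the untreated replicates 1, 2 and 3. At 0.01 U it was 0.722, 0.775 and 0.747, and at 0.1 U it was 1.11, 1.20 and 1.51. At 1 U it reached 1.58, 2.22 and 2.89, and at 10 U it was 0.847, 0.874 and 1.06. The 1 U samples were thus above all other samples, the 0.01 U samples lay within the untreated range, and 1 sample at 10 U had more H-strand than L-strand termini.

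MT-CO2, which takes electrons from cytochrome c, had H/L ratios of 0.793, 0.758 and 0.810 untreated and 0.810, 0.860 and 0.873 at 0.01 U. They were 1.60, 1.58 and 1.97 after 0.1 U, 2.08, 3.01 and 3.97 after 1 U, and 1.24, 1.32 and 1.49 at 10 U. All samples from 0.1 U upward were above 1, and none of them overlapped with the untreated samples. At 10 U the adjacent positions 7588 to 7590 held 21.9% ± 1.03 (SD, n = 3) of the H-strand termini of MT-CO2. The ratio without them was not computed. MT-CO3, the third of the mitochondrially encoded core subunits, had 0.733, 0.836 and 0.893 untreated and 0.853, 0.893 and 0.928 at 0.01 U. It had 1.52, 1.74 and 1.90 after 0.1 U, 2.07, 2.97 and 3.74 after 1 U, and 1.08, 0.960 and 1.25 after 10 U. Again the 1 U samples did not overlap with any other group.

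**Figure D1:**
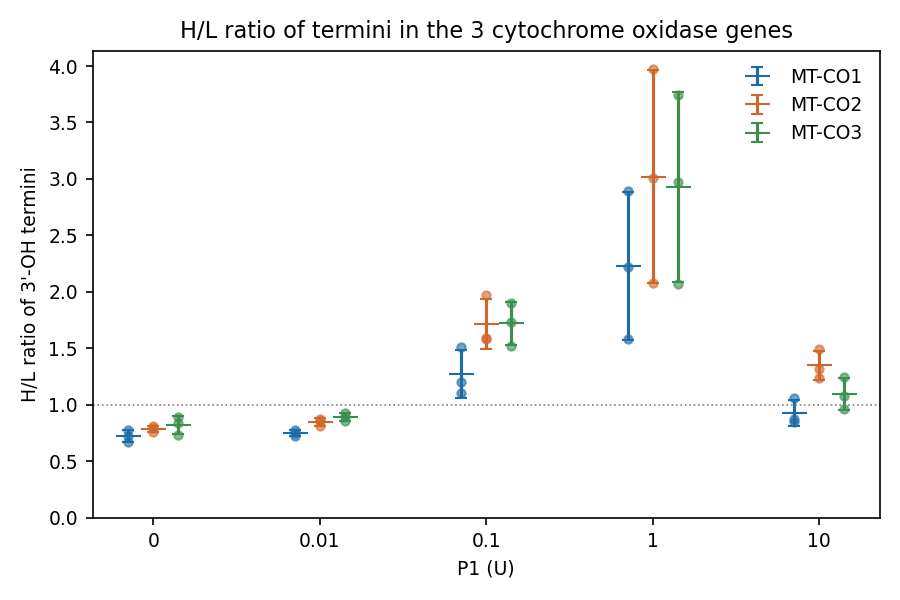
Ratio of H-strand to L-strand 3′-OH termini (linear axis) in MT-CO1, MT-CO2 and MT-CO3 at each amount of P1 (U). Points are the 3 replicates, horizontal bars their mean and whiskers the SD; the ratio is below 1 in each untreated sample, and each gene has its highest values at 1 U, from 1.58 to 3.97.

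The H/L ratio at 1 U was 2.99 times the untreated ratio in MT-CO1, 3.71 times in MT-CO2 and 3.48 times in MT-CO3 (geometric means of the ratios within replicate numbers, higher in 3 of 3 replicates). The spread over the 5 amounts was larger than that between replicates in all 3 genes. An exact permutation test within replicate numbers, with Benjamini-Hochberg adjustment over the 37 genes, gave adjusted p = 0.000367 for MT-CO1 and 0.000321 for both MT-CO2 and MT-CO3. The call is not particular to these genes, since 100% of the 37 genes passed in this direction. The test covers all 5 amounts together, and a comparison of a single amount with the untreated samples over 3 pairs cannot give an exact p below 0.25.

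The step from 0.1 U to 1 U was of like size in the 3 genes, while that from untreated to 0.1 U was smallest in MT-CO1. From untreated to 0.1 U the H/L ratio changed by a factor of 1.75 in MT-CO1, 2.17 in MT-CO2 and 2.09 in MT-CO3, and from 0.1 U to 1 U by a factor of 1.72, 1.71 and 1.66. From 1 U to 10 U it went down to 0.426, 0.461 and 0.383 of its value, lower in 3 of 3 replicates for each gene. At 10 U it was still 1.28, 1.71 and 1.33 times the untreated ratio, and above it in 3 of 3 replicates. At 0.01 U the factor was 1.03 in MT-CO1, where 2 of 3 replicates were higher, 1.08 in MT-CO2 and 1.09 in MT-CO3.

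On the H strand of the 3 genes the level at 1 U was above that of the untreated samples, with both totals. MT-CO1 had 10868, 11202 and 10458 H-strand RPM per kb in the untreated replicates and 24530, 25670 and 24439 at 1 U. MT-CO2 had 10596, 9939 and 9368 untreated and 25136, 25605 and 26736 at 1 U. In both genes every 1 U sample was far above every untreated sample.

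MT-CO3 had 9790, 9765 and 9236 H-strand RPM per kb untreated and 22242, 24068 and 22255 at 1 U, again without overlap. The factors at 1 U were 2.29 for MT-CO1 (adjusted p = 0.000952), 2.59 for MT-CO2 and 2.38 for MT-CO3 (adjusted p = 0.000395 for each, the same exact permutation test over 37 genes), higher in 3 of 3 replicates. Of all 37 genes, 94.6% passed in this direction. Scaled to the termini outside the NCR the factors were smaller, at 1.22, 1.38 and 1.26, with adjusted p of 0.00794, 0.00176 and 0.00137 in the exact permutation test. With the total outside the NCR, 33 of the 37 genes passed and were higher at 1 U, and 3 passed and were lower. That total moved the median factor of all 37 genes from 3.83 to 2.03, so that the 3 genes were below the median of all genes with either total. At 0.01 U the H-strand level of the 3 genes together was 0.813 of the untreated level by all mitochondrial termini and 1.01 times that level by the total outside the NCR. At 10 U the factors were 2.26 in MT-CO1, 3.18 in MT-CO2 and 2.54 in MT-CO3 by all mitochondrial termini. They were 0.992, 1.40 and 1.12 by the total outside the NCR. In MT-CO1 a rise at 10 U was thus seen only with all mitochondrial termini as the total.

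The L-strand level at 1 U was below the untreated level on average. MT-CO1 had 16181, 15476 and 13398 L-strand RPM per kb untreated and 15496, 11545 and 8452 at 1 U, and these ranges overlap. MT-CO2 had 13358, 13117 and 11563 untreated and 12073, 8509 and 6734 at 1 U. MT-CO3 had 13360, 11686 and 10340 untreated and 10757, 8104 and 5943 at 1 U.

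In these last genes, too, the replicate 1 sample at 1 U reached into the untreated range, while the other 1 U samples were below it. The L-strand level at 1 U was 0.767 of the untreated level in MT-CO1, 0.699 in MT-CO2 and 0.685 in MT-CO3, lower in 3 of 3 replicates, and the spread over the 5 amounts had adjusted p = 0.00589 for each gene by the exact permutation test over 37 genes. Of the 37 genes, 83.8% passed this test and had a lower level at 1 U. The test covers all 5 amounts, with the higher level at 10 U among them. It does not test the step from untreated to 1 U alone. In the 3 genes the calls depended on replicates 1 and 2: without replicate 1 the adjusted p was 0.0771, and without replicate 2 it was 0.194. By all mitochondrial termini the level of the 3 genes together was 0.772 of the untreated level at 0.01 U, 0.653 at 0.1 U and 0.734 at 1 U, and scaled to the termini outside the NCR it was 0.961, 0.658 and 0.389. At 10 U the L-strand level was 1.77, 1.86 and 1.91 times the untreated level with all mitochondrial termini as the total. With the other total it was below the untreated level at 10 U, at 0.778, 0.817 and 0.838 of it, and at 1 U it was 0.407, 0.371 and 0.363 of it, so the direction at 10 U depends on the total. By that total 36 of 37 genes passed the test and were lower at 1 U on the L strand, against 31 with all mitochondrial termini. The adjusted p of the 3 genes was 0.000642, 0.000428 and 0.000428 in the exact permutation test. Both strands outside the NCR sum to the same scaled total in each sample, so a higher H-strand part goes with a lower L-strand part. A loss of L-strand termini as such was not tested.

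**Figure D2:**
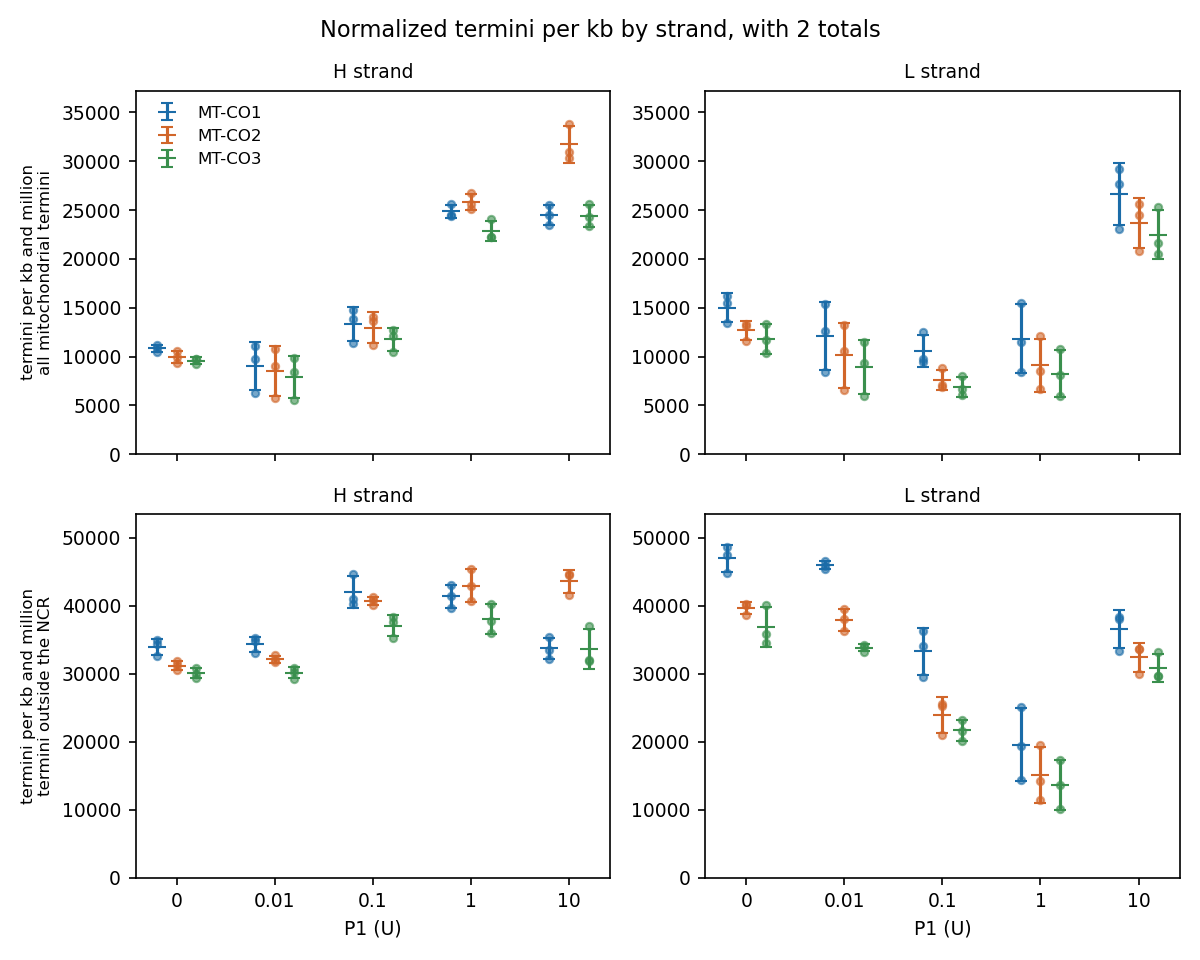
Termini per kb of MT-CO1, MT-CO2 and MT-CO3 (linear axes) on the H strand and the L strand at each amount of P1 (U), scaled to 1000000 mitochondrial termini (upper panels) or to 1000000 termini outside the NCR (lower panels). Points are the 3 replicates, horizontal bars their mean and whiskers the SD; the H strand is higher at 1 U than untreated with both totals, and the L strand at 10 U is above the untreated level in the upper panel and below it in the lower one.

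The 3 genes together held 22.6% ± 0.351 of the termini outside the NCR in the untreated samples. They held 22.2% ± 0.136 after 0.01 U, 20.6% ± 0.335 after 0.1 U, 17.4% ± 1.06 after 1 U and 21.1% ± 0.379 after 10 U (SD over n = 3). All samples at 1 U, of which the highest had 18.3%, were below all other samples. With both strands counted the genes thus held a smaller part of the mitochondrial coding region at 1 U, while their H strand alone held more.

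The number of positions with a terminus showed the same order of amounts on a smaller scale. The H/L ratio of such unique sites in the 3 genes was 0.892, 0.964 and 0.978 untreated and 1.29, 1.43 and 1.66 at 1 U. The factor was 1.54, higher in 3 of 3 replicates, with an exact permutation p = 0.000139 over the 5 amounts. On the H strand 58.0% ± 15.9 of the positions had a terminus untreated and 81.9% ± 3.39 at 1 U, and on the L strand 61.0% ± 14.3 and 56.9% ± 9.13 (SD, n = 3). The wide spread of the untreated samples goes with the low depth of replicate 1, and a strand with most of its positions occupied cannot gain many unique sites. When all samples were thinned to the smallest one, the factor was 2.19.

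MT-CO1 stood low among the mitochondrial genes in the size of its change. By the factor of the H/L ratio at 1 U, it ranked 4 from the lowest of 37 genes and 1 of the 13 protein-coding genes, MT-CO3 ranked 7 and 2, and MT-CO2 ranked 10 and 4. The median factor was 5.71 over all genes and 4.48 over the protein-coding ones. MT-ND1 had a factor of 6.26 and MT-ND2 of 5.71, while MT-ND4 and MT-ND5, further complex I subunits that lie beyond MT-CO3, had 3.71 and 5.44. The rRNA genes MT-RNR1 and MT-RNR2 had the lower factors of 1.29 and 1.55.

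**Figure D3:**
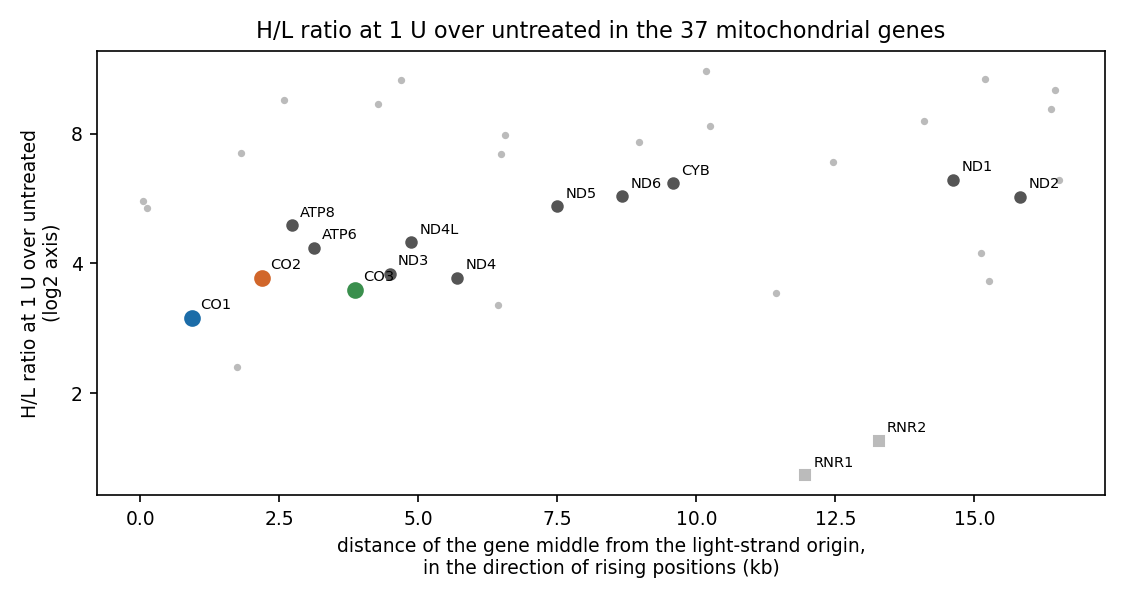
Factor of the H/L ratio at 1 U over untreated (log2 axis, geometric mean of 3 replicates) for the 37 mitochondrial genes against distance in kb. The distance runs from the light-strand origin to the gene middle in the direction of rising positions, around the circular genome. Genes just before the origin are thus at the right end. Large coloured points are MT-CO1, MT-CO2 and MT-CO3, dark points the other protein-coding genes, squares the rRNA genes and small points the tRNA genes; the 3 genes, at 2.99 to 3.71, are below MT-ND1 and MT-ND2 at the right end, which have 6.26 and 5.71.

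The difference from the rest of the genome was tested as a quotient of H/L ratios. The H/L ratio of the 3 genes over that of all other positions outside the NCR was 0.684, 0.852 and 0.805 untreated, 0.767, 0.778 and 0.735 at 0.01 U and 0.600, 0.592 and 0.619 at 0.1 U. It was 0.562, 0.561 and 0.508 at 1 U and 0.626, 0.723 and 0.647 at 10 U. The 3 genes were thus less H-biased than the rest in every sample, the untreated ones included, and the 1 U samples were below all others.

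At 1 U the quotient was 0.699 of its untreated value, lower in 3 of 3 replicates, with an exact permutation p = 0.000833 over the 5 amounts. Without replicate 3 it was 0.735 and did not pass (exact permutation p = 0.05). For unique sites it was 0.961 (exact permutation p = 0.106, higher in 1 of 3 replicates). Most H-strand positions were occupied at 1 U, and the part of this in the unique-site value was not tested. In an alternative chosen after the data were seen, unique sites were counted after all samples were thinned to the smallest one, and the factor was then 0.853 (exact permutation p = 0.00264, lower in 3 of 3 replicates).

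Against single neighbours, a comparison chosen after the data were seen, the quotient to MT-ND1 and MT-ND2 was 0.807, 0.994 and 0.938 untreated and 0.551, 0.504 and 0.428 at 1 U. The quotient was lower in each 1 U sample than in each untreated sample, and at 1 U it was 0.541 of its untreated value (exact permutation p = 0.00125 over the 5 amounts, lower in 3 of 3 replicates; 0.589 and p = 0.05 without replicate 3). At 10 U it was back at 0.759, 0.919 and 0.800. The quotient to MT-ND4 and MT-ND5 was 0.710 ± 0.0740 untreated and 0.481 ± 0.0394 at 1 U (SD, n = 3), a factor of 0.678 with an exact permutation p = 0.00194 over the 5 amounts. Without replicate 3 neither quotient passed, and that to MT-ND4 and MT-ND5 was 0.709 (p = 0.0917 in the same exact test). The quotient to MT-ND4 and MT-ND5 also did not pass for unique sites (0.921, p = 0.0894 in the same exact test). For unique sites after thinning it was 0.791 (exact permutation p = 0.000208).

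The genes whose mean H/L ratios over the 5 amounts were nearest to those of the 3 genes, measured as the distance between the log2 profiles, were MT-ATP8 (0.604), MT-ND4 (0.651) and MT-TS1 (1.15). MT-ATP8 encodes a subunit of ATP synthase and lies between MT-CO2 and MT-CO3, and MT-TS1 is a tRNA gene next to MT-CO1. MT-ATP8 went from 0.668 ± 0.117 untreated to 3.46 ± 1.47 at 1 U and 1.33 ± 0.194 at 10 U, and MT-ND4 went from 0.884 ± 0.0582 to 3.41 ± 1.18 and 1.28 ± 0.338 (SD, n = 3).

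Along the 3 genes the H strand had a slight downward slope with the distance from OL, and a change of it with P1 did not pass the test. The slope of H-strand termini over 100-base bins was -0.034 ± 0.010 log2 per kb in the untreated samples, -0.020 ± 0.0049 after 1 U and -0.0033 ± 0.016 after 10 U (SD, n = 3), with an exact permutation p = 0.171 over the 5 amounts. Its change at 1 U was 0.014 with 100-base bins and -0.012 with 50-base bins (exact permutation p = 0.923). After thinning to the smallest sample the test passed, with 0.017 and exact permutation p = 0.0469.

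The density ratio of MT-CO3 to MT-CO1 on the H strand compares the far gene with the near one. It was 0.901, 0.872 and 0.883 untreated, 0.907, 0.938 and 0.911 at 1 U and 0.994, 0.952 and 1.04 at 10 U. The 10 U samples were above all others, and the 1 U samples were slightly above the untreated ones, by a factor of 1.04 (exact permutation p = 0.00778 over the 5 amounts). The ratio did not pass without the 5 highest positions of each gene and strand (1.02, exact permutation p = 0.176) nor without replicate 1 or replicate 3 (1.05 and 1.04, exact permutation p = 0.0833 for each). For unique sites the factor was 0.996 (exact permutation p = 0.108).

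The L strand had fewer termini with growing distance in every sample. Its slope was -0.12, -0.17 and -0.16 log2 per kb untreated, -0.25, -0.23 and -0.21 at 0.1 U, -0.20, -0.17 and -0.19 at 1 U and -0.12, -0.089 and -0.069 at 10 U. The slope was steepest at 0.1 U and flattest at 10 U, and the 0.1 U samples were below all other samples. The spread over the amounts had an exact permutation p = 0.000903, with p = 0.0583 without replicate 3 and p = 0.24 for unique sites in the same exact test. MT-CO3 had 0.784 ± 0.0369 of the L-strand density of MT-CO1 untreated, 0.652 ± 0.0262 at 0.1 U and 0.845 ± 0.0576 at 10 U (SD, n = 3).

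In 100-base bins the H-strand change at 1 U depended on the total. Scaled to all mitochondrial termini, all 28 bins had more H-strand termini than untreated in 3 of 3 replicates, with factors from 1.69 to 4.58 and a median of 2.33. Scaled to the termini outside the NCR, 25 bins were higher on average, 19 of them in all replicates, and 3 were lower, with factors from 0.896 to 2.43 and a median of 1.24. With both totals the highest factor was in MT-CO2 at 7686 to 7785 and the lowest in MT-CO1 at 6704 to 6803.

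On the L strand all 28 bins were lower than untreated at 1 U in 3 of 3 replicates when scaled to the termini outside the NCR, with factors from 0.311 to 0.579 and a median of 0.375. Scaled to all mitochondrial termini, 27 were lower on average, 21 of them in all replicates, with a median of 0.706. The MT-CO1 bin at 6604 to 6703 had the highest L-strand factor with both totals, 0.579 and 1.09.

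At 10 U the bins differed widely, and the direction of many turned with the total. Scaled to all mitochondrial termini, the H-strand factors went from 1.01 to 8.13 with a median of 2.57, and the L-strand factors from 0.888 to 4.81 with a median of 1.80. Scaled to the termini outside the NCR, the H-strand factors went from 0.445 to 3.57 with a median of 1.13 and 12 bins below 1, and the L-strand factors from 0.390 to 2.11 with a median of 0.791 and 22 bins below 1. The first bin of MT-CO2, at 7586 to 7685, had the highest H-strand factor with both totals, and went from 8506 ± 853 H-strand RPM per kb untreated to 29557 ± 2328 at 1 U and 68986 ± 3048 at 10 U (SD, n = 3). The MT-CO1 bin at 6704 to 6803 had the highest L-strand factors at 10 U, 4.81 and 2.11, while at 1 U it had 0.890 and 0.472.

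**Figure D4:**
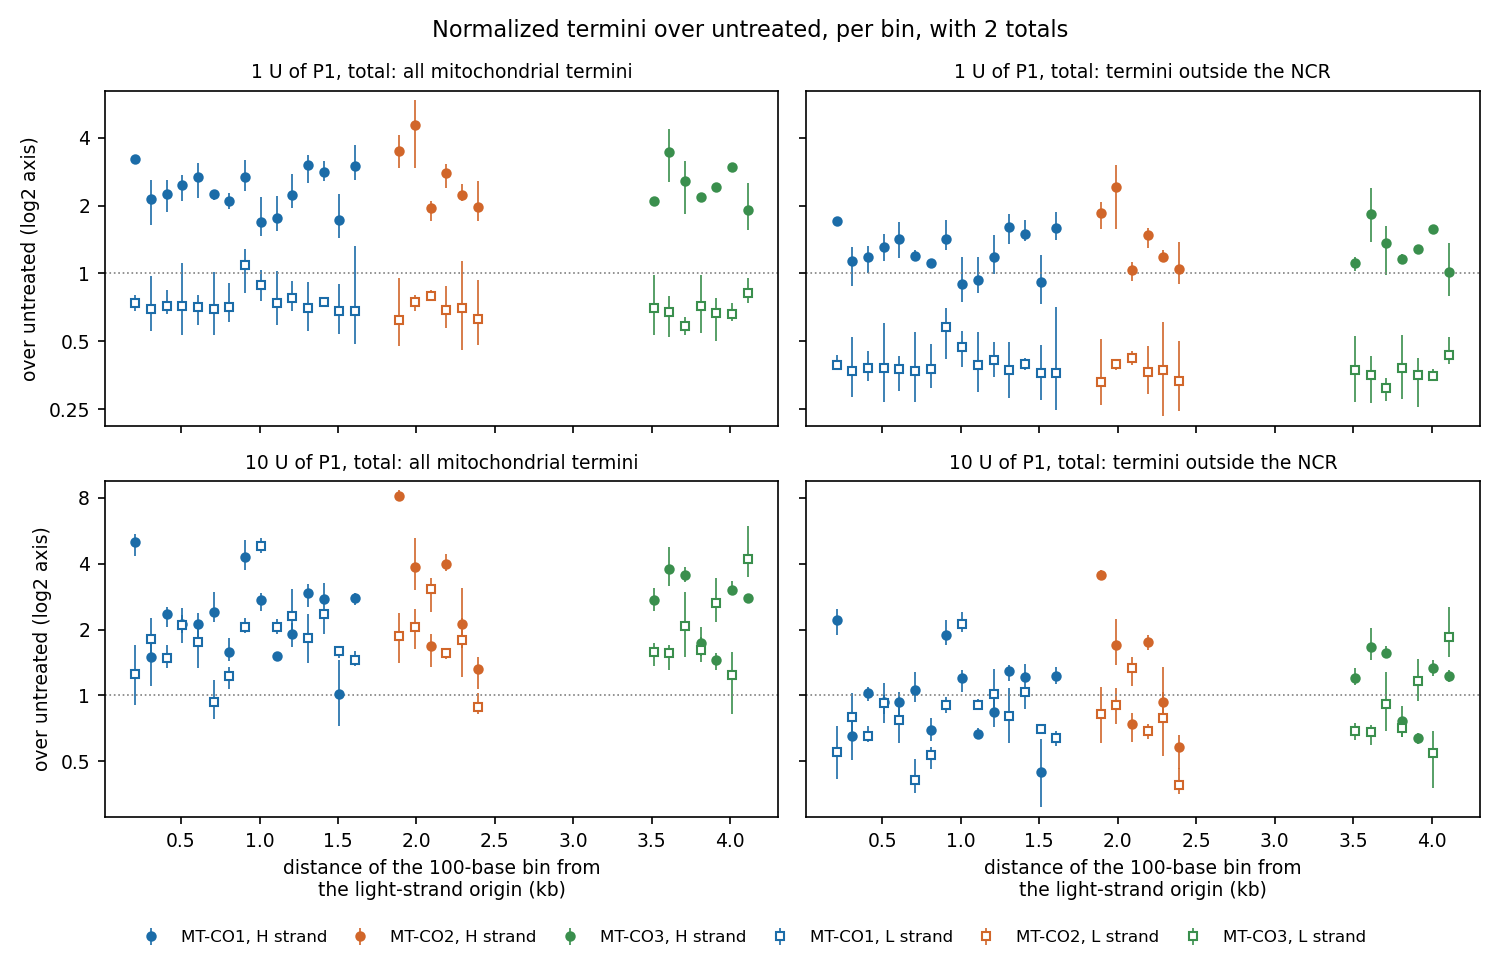
Termini over untreated (log2 axes) in 100-base bins of MT-CO1, MT-CO2 and MT-CO3 at 1 U and 10 U of P1, against the distance from the light-strand origin in kb, scaled to all mitochondrial termini (left) or to the termini outside the NCR (right). Filled circles are the H strand and open squares the L strand, both as geometric means of 3 replicates, with whiskers from the lowest to the highest replicate; at 1 U the H-strand bins are all above 1 on the left and 25 of 28 are on the right, and at 10 U the highest bin, at the start of MT-CO2, has 8.13 on the left and 3.57 on the right.

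Single positions carried a sizeable part of the termini, and the position with the highest mean share was the same untreated and at 1 U on the L strand of MT-CO1 and the H strand of MT-CO3 only. Positions were picked for the highest mean share of a gene and strand untreated or at 1 U, so their lead in that group is given by the choice. The median position held only 0.0177% of the H-strand termini of MT-CO1 in the untreated samples. The intervals given below are Wilson 95% intervals that cover counting error only, since reads of one molecule could not be told apart.

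On the L strand of MT-CO1 the same position, 6692 (base 789 of the gene), led in 15 of 15 samples. It held 3.29%, 2.91% and 2.90% of the L-strand termini of the gene in the untreated replicates, 4.81%, 4.65% and 4.53% at 0.1 U, 4.70%, 6.29% and 5.24% at 1 U and 5.51%, 4.32% and 5.31% at 10 U. In untreated replicate 2 it had 326 of 11187 termini (interval 2.62% to 3.24%), and in the 1 U replicate 2 it had 403 of 6408 (interval 5.72% to 6.91%). In this share all samples at 0.1 U and above were higher than all untreated samples. Scaled to 1000000 termini outside the NCR, the position had 2463, 2132 and 1999 termini in the untreated replicates. At 0.1 U it had 2696, 2435 and 2060, which overlap with the untreated values. At 1 U it had 1813, 1874 and 1157, each below all untreated samples. At 10 U it had 3230, 2550 and 2727, each above all untreated samples. Position 6692 lies in the bin with the highest L-strand factor at 1 U.

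Among the positions picked in this way, 7589 on the H strand of MT-CO2, the base 4 of the gene, changed most in share between untreated and 10 U. It held 0.615%, 1.29% and 1.06% of the H-strand termini untreated, 2.35%, 3.01% and 3.02% at 1 U and 13.6%, 12.6% and 12.3% at 10 U. At 10 U these were 121 of 890, 167 of 1323 and 77 of 628 termini (intervals 11.5% to 16.0%, 10.9% to 14.5% and 9.92% to 15.1%). With its neighbours on either side it held 2.64% ± 0.598 untreated and 21.9% ± 1.03 at 10 U (SD, n = 3). The 10 U samples did not overlap with any other group. These positions lie in the first bin of MT-CO2. The H/L ratio, H-strand level and first-bin factor of MT-CO2 at 10 U include their termini. Values without them were not computed.

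The leading H-strand position of untreated MT-CO2, 7826 (base 241), went the other way. Its share was 2.83%, 4.86% and 4.14% untreated, 1.54%, 1.51% and 1.35% at 1 U and 0.674%, 0.680% and 0.955% at 10 U. The H-strand leader of untreated MT-CO1, 6853 (base 950), likewise had 1.49% ± 0.215 untreated, 0.533% ± 0.151 at 1 U and 0.457% ± 0.300 at 10 U, and 7182 (base 1279), chosen at 1 U, had 0.507% ± 0.163, 0.888% ± 0.0658 and 1.46% ± 0.433 (SD, n = 3). For both 7826 and 6853 the untreated and the 1 U samples did not overlap.

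In MT-CO3 the position 9714 (base 508) led the H strand both untreated and at 1 U. Its share was 1.39%, 3.79% and 3.10% untreated and 1.39%, 1.87% and 1.46% at 1 U, which overlap. On the L strand 9538 (base 332) had 1.47% ± 0.308 untreated, 1.15% ± 0.0187 at 0.1 U, 2.50% ± 0.304 at 1 U and 4.11% ± 0.387 at 10 U, whereas the untreated leader 9373 (base 167) had 2.40% ± 0.531 untreated and 0.685% ± 0.414 at 10 U (SD, n = 3). The L-strand leaders of MT-CO2, 8153 and 8020, had 3.37% ± 0.552 and 2.90% ± 0.911 untreated and 0.338% ± 0.140 and 0.496% ± 0.217 at 10 U.

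**Figure D5:**
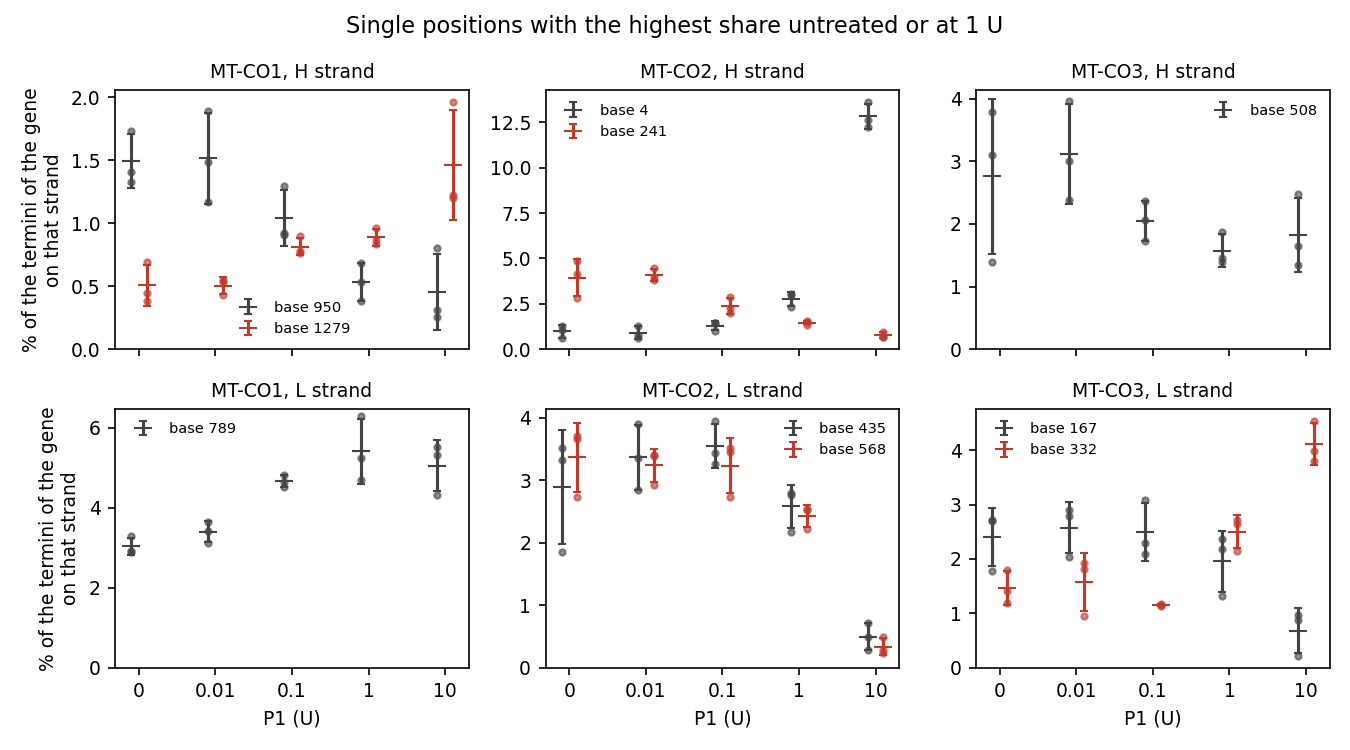
Share of the termini of a gene and strand (%, linear axes starting at 0) at the single positions with the highest mean share untreated or at 1 U, by amount of P1 (U); positions are given as the base of the gene. Points are the 3 replicates, horizontal bars their mean and whiskers the SD; base 4 of MT-CO2 on the H strand is near 1% untreated and above 12% in all 10 U samples, while base 241 falls below 1%.

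The mean share of the 10 highest positions was higher at 10 U than untreated on both strands of each gene. The change was smallest on the H strand of MT-CO1. The 10 highest positions of a sample held 20.1% ± 2.23 of the H-strand termini of MT-CO2 untreated, 17.9% ± 0.701 after 1 U and 38.7% ± 0.761 after 10 U. On the L strand of MT-CO3 they held 16.5% ± 1.26, 17.7% ± 1.82 and 31.5% ± 3.82, and on the L strand of MT-CO1 15.3% ± 0.363, 18.5% ± 1.82 and 21.1% ± 1.23 (SD, n = 3). The 10 U samples had the fewest termini, and the part of depth in this concentration was not tested.

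The profiles of both strands resembled each other with a shift of 1 base. Over the 3010 positions of the 3 genes, the correlation of H-strand and L-strand termini of a sample was highest when the L strand was read 1 base further along in rising positions, with a mean r of 0.554 untreated, 0.574 after 0.01 U, 0.620 after 0.1 U, 0.603 after 1 U and 0.298 after 10 U. With a shift of 2 bases in the same direction it was 0.410 untreated, 0.455 at 1 U and 0.276 at 10 U. At the same base it was 0.324 untreated and 0.271 at 1 U, and with a shift of 1 base in the other direction 0.173 and 0.0587. These values describe positions that share library, depth and base composition, and the shift depends on how the positions of each strand were written in the files, which was not tested.

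The profiles of different samples were also compared position by position. Over the 3010 positions, the median correlation between the H-strand profiles of 2 untreated samples was 0.580, and that between an untreated and a 1 U sample was 0.653. It was 0.776 among the 1 U samples, 0.545 between a 1 U and a 10 U sample and 0.486 among the 10 U samples. On the L strand it was 0.661 among the untreated samples, 0.669 between an untreated and a 1 U sample and 0.517 among the 10 U samples. These correlations also describe positions that share base composition, and the depth, lowest at 10 U, was not equalised for them. The base composition of the genes was alike: on the L strand of MT-CO1, MT-CO2 and MT-CO3, G made up 16.2%, 14.9% and 14.8% of the bases and A made up 27.2%, 28.7% and 26.8%.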

How the data were processed

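K562 nuclei pellets were digested with 0, 0.01, 0.1, 1 or 10 U of P1, with 3 biological replicates each. The authors aligned trimmed paired reads to the hg19 mitochondrial genome with BWA-MEM 0.7.12, took the base after the run of Ts in read 2 of uniquely mapped pairs as the 3′-OH terminus, and deposited the count of termini per position and strand. They also deposited the same values as RPM, scaled to the mitochondrial total, which were not used here. No molecular identifiers or removal of duplicates are stated, so a terminus may be counted from several reads of one molecule, and repeated reads can raise single positions. The study states a filter against priming inside A-rich sequence for nuclear termini only, and such priming at single positions was not tested. Region lists were not used. The members, lists and tests were chosen with earlier results of these data known.

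From the counts, H/L ratios, RPM per kb, slopes over bins of 100 bases with a pseudocount of 1, unique sites and shares of single positions were computed per sample with Python 3.11.15, NumPy 2.4.6, pandas 2.3.3 and SciPy 1.17.1, and plotted with matplotlib 3.10.9. The H strand is the plus strand of the files, on which the known ends of 7S DNA lie. The NCR was bounded as in the methods of the study. A factor is the geometric mean of the 3 quotients between samples of one replicate number. The spread over the 5 amounts on the log2 scale was tested two-sided by exact permutation of the amounts inside each replicate number (14400 arrangements, smallest p 6.94e-05), because the methods divide each treated sample by the control. Per-gene tests were adjusted by Benjamini-Hochberg over 37 genes and called at 0.05. Other results carry unadjusted p-values. Named genes were the 3 members, MT-ND1, MT-ND2, MT-ND4 and MT-ND5 for comparison, and the 3 genes with the nearest H/L profile. The rRNA genes were named after their values were seen. Nuclear copies were found by aligning the genes to GRCh37 with BLAST 2.17.0 (megablast). No DNA sequence is printed, since the mitochondrial sequence of the files differs in length from the reference used here. Depth was 29622 to 692989 mitochondrial termini per sample. The tests were tested on simulated data. Alternatives were no replicate block, omission of each replicate, shifted gene positions, thinning (mean of 20 draws), omission of the 5 highest positions, unique sites, unique sites after thinning (added after the data were seen), sites with at least 2 termini, the total outside the NCR, other bins or pseudocounts and the rest of the Q2 region of the study in place of all other positions outside the NCR.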

Additional observations from a re-analysis of the deposited data

How the results depend on the processing

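Of 159 alternative values of 16 results, 139 kept their direction and their side of the threshold, among them each value of the H/L ratio and of the H-strand level of the 3 genes, although unique sites lowered the H/L factors to 1.52, 1.50 and 1.61. Leaving out 1 replicate gave L-strand factors at 1 U of 0.686 to 0.845 in MT-CO1, 0.615 to 0.766 in MT-CO2 and 0.631 to 0.747 in MT-CO3, quotients of 0.644 to 0.735 to the rest outside the NCR, 0.481 to 0.589 to MT-ND1 and MT-ND2 and 0.622 to 0.709 to MT-ND4 and MT-ND5, MT-CO3 over MT-CO1 ratios of 1.02 to 1.05, and L-strand slope changes of -0.057 to -0.014. With unique sites the quotient to the rest was 0.961 and that to MT-ND4 and MT-ND5 0.921, and neither passed, whereas after thinning they were 0.853 and 0.791 and both passed. Unique sites also gave an L-strand slope change of -0.033, which did not pass, and a ratio of MT-CO3 to MT-CO1 that reversed to 0.996. Without the 5 highest positions that ratio was 1.02. The H-strand slope change passed the test after thinning (0.017) and with unique sites (0.0016), and reversed with 50-base bins (-0.012). The cause was not tested. Without the replicate block the adjusted p of the H/L ratio was 1.85e-05 for MT-CO1 and 1.32e-05 for MT-CO2 and MT-CO3 in the exact permutation test, and no call changed. Deviations of samples with the same number correlated between -0.458 and 0.405, so the numbers are not shown to pair the samples. With 29622 termini in the smallest sample, single positions at 10 U rest on few termini.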
